A study of Mus musculus with 16 samples.

Results

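Pol II peaks that lay far from annotated transcription start sites (TSSs) and recurred in both treatments were described in cultured mouse CD8+ T cells. The cells came from spleens of OT1 mice, a strain whose CD8+ T cells share 1 transgenic antigen receptor, and were stimulated through CD3 and CD28 for 48 h and then grown in IL-2 for 3 days. The GSK group received 0.5 μM GSK2879552, an inhibitor of the H3K4 demethylase LSD1, throughout activation and expansion, and the Veh group received vehicle. Chromatin immunoprecipitation followed by sequencing (ChIP-seq) gave 1 peak list for each of Pol II, LSD1, H3K4me1, H3K4me2, H3K4me3 and H3K27ac in each treatment, 12 lists in all. The study ran its ChIP-seq more than once and says that its figures show 1 of the repeats. The labels tie each list to 1 library, and no source used here states that a list pools the repeats. No difference could therefore be measured against a spread between replicates, and no test was possible.

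A peak was taken as a member if it belonged to the Veh Pol II list, if its summit was more than 2.5 kb from every TSS of the curated RefSeq transcripts, and if it overlapped a GSK Pol II peak by at least 1 bp. Of the 15638 Veh Pol II peaks, 8383 met the distance and 1121 met both conditions. They fell into 1059 separate places when neighbours within 1 kb were joined, and 1003 of these held a single member. Overlap with a GSK peak was found for 39.1% of all Veh Pol II peaks, for 68.8% of the 7255 peaks within 2.5 kb of a TSS and for 13.4% of the 8383 distal peaks. The members were thus chosen by the Pol II peak calls of both libraries, so their Pol II values are given as a description. The LSD1 and histone lists took no part in the choice. Members closest to the distance limit had summits 2522 and 2526 bp from a TSS, and the nearest peaks on the other side lay at 2497 and 2492 bp. The smallest overlap with a GSK peak was 4 bp, and the nearest miss was a gap of 4 bp.

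Pol II transcribes messenger RNAs, most long noncoding RNAs and the U1, U2, U4 and U5 small nuclear RNAs (snRNAs) of the spliceosome, whereas Pol III transcribes tRNAs and U6 RNA. Away from promoters, Pol II is known to occur at active enhancers, where it makes short unstable RNAs, and beyond the ends of genes, where it travels on before release. H3K4me3 usually marks promoters, H3K4me1 and H3K4me2 usually mark enhancers and promoter flanks, and H3K27ac marks active elements of either kind. LSD1 is a demethylase that acts on H3K4me1 and H3K4me2.

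The labelled cell type was checked with H3K4me3 at marker promoters, within 1 kb of a TSS. All 6 of the CD8+ T cell markers tested had a Veh H3K4me3 peak, against 1 of 5 B cell markers, 1 of 5 myeloid markers and 1 of 4 CD4+ T cell markers. A Veh Pol II peak was found at 2 of the 6 CD8+ T cell marker promoters and at 0 promoters of the other cell types, and a GSK Pol II peak at 4 of the 6 and at 0.

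Members with some of the highest folds lay at snRNA genes, and 3 of these are printed from the mm10 genome (GRCm38.p6). Each is given as 300 bp centred on the Veh summit and read in the direction of the gene. The windows show where the called summit lay relative to the transcript. The capitals mark the part of the window inside the RefSeq snRNA gene. The U1 gene LOC115488077 is shown at chr12:54734542-54734841 on the minus strand. The U2 gene Gm25360 is shown at chr1:72226246-72226545 and the U4 gene Gm24265 at chr5:115489400-115489699, each on the plus strand. The last window, at chr17:83861730-83862029 on the plus strand, holds the start of the tRNA-Ile gene n-TIaat17 in capitals, with the summit upstream of it.
LOC115488077: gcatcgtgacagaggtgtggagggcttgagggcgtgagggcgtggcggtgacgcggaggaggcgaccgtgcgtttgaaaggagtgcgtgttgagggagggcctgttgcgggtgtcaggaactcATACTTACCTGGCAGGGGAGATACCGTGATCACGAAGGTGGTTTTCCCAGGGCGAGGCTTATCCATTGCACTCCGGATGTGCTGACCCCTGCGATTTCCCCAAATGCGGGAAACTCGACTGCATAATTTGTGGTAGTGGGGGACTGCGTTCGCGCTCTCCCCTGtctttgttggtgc
Gm25360: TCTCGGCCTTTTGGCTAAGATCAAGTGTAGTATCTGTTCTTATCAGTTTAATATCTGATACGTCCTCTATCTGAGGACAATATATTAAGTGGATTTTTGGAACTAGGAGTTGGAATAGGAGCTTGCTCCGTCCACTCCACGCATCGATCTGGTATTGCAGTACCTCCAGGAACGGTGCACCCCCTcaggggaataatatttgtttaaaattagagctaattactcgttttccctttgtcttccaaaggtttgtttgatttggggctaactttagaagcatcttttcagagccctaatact
Gm24265: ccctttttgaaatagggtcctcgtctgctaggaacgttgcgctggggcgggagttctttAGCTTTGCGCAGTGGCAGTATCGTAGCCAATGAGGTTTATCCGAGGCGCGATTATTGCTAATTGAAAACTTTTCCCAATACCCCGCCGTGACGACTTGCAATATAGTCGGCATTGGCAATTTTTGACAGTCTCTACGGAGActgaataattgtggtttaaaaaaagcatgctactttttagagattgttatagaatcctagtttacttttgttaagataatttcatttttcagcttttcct
n-TIaat17: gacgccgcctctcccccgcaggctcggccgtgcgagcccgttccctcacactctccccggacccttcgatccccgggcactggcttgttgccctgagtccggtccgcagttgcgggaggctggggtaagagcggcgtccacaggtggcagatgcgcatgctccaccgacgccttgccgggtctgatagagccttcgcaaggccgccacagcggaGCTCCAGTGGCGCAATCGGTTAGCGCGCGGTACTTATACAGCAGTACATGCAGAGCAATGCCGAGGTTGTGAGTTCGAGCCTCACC

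Windows around members in introns of T cell genes are printed as examples of those without an snRNA or tRNA gene. They are all read on the plus strand of mm10 and overlap no exon of a RefSeq mRNA. The capitals mark every match, on either strand, to 3 short motifs: AP-1 (TGANTCA), RUNX (TGTGGTT) and ETS (CCGGAAG). A window was printed only if it held such a match, so the matches do not show how common the motifs are among members. The window in an intron of Bcl2, at chr1:106601392-106601691, holds 1 AP-1 match. The windows in introns of Ptprc, at chr1:138136280-138136579, and of Lef1, at chr3:131208457-131208756, hold 1 RUNX match each.
Bcl2: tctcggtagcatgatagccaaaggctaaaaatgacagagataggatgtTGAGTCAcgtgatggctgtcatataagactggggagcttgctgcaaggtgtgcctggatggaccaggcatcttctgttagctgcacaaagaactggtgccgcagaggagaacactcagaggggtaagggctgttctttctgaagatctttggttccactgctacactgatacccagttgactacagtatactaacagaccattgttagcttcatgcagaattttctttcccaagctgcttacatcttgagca
Ptprc: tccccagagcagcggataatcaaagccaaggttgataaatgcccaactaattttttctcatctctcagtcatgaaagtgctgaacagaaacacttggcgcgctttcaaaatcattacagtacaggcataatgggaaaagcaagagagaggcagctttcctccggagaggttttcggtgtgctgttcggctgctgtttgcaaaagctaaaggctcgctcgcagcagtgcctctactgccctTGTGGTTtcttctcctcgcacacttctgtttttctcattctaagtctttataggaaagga
Lef1: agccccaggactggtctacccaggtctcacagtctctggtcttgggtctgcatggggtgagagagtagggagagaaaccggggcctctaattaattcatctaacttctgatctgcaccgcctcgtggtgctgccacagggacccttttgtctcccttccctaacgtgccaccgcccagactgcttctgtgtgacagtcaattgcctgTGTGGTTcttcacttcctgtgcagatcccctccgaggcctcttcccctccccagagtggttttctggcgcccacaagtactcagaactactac

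The fold enrichment of Pol II, which the authors deposited for each peak and which sets the ChIP pileup against a background taken from an input library, was moderate over most members. In Veh cells it ran from 1.54 to 38.2 with a median of 4.63, and 52 of the 1121 members reached 10. The GSK peaks over them had a median fold of 3.97. The log2 ratio of GSK to Veh fold had a median of −0.18 and ran from −1.40 to 1.05. The GSK fold was higher in 306 members (27.3%), at least 2-fold higher in 1 member and at least 2-fold lower in 13. At the 4990 peaks near TSSs and in both treatments, the median folds were 5.64 in Veh and 4.52 in GSK, the median log2 ratio was −0.30, and the GSK fold was higher at 19.0%. The member peaks had a median width of 373 bp, against 215 bp for the 7262 distal peaks of the Veh list alone and 414 bp for the peaks near TSSs in both.

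**Figure D1:**
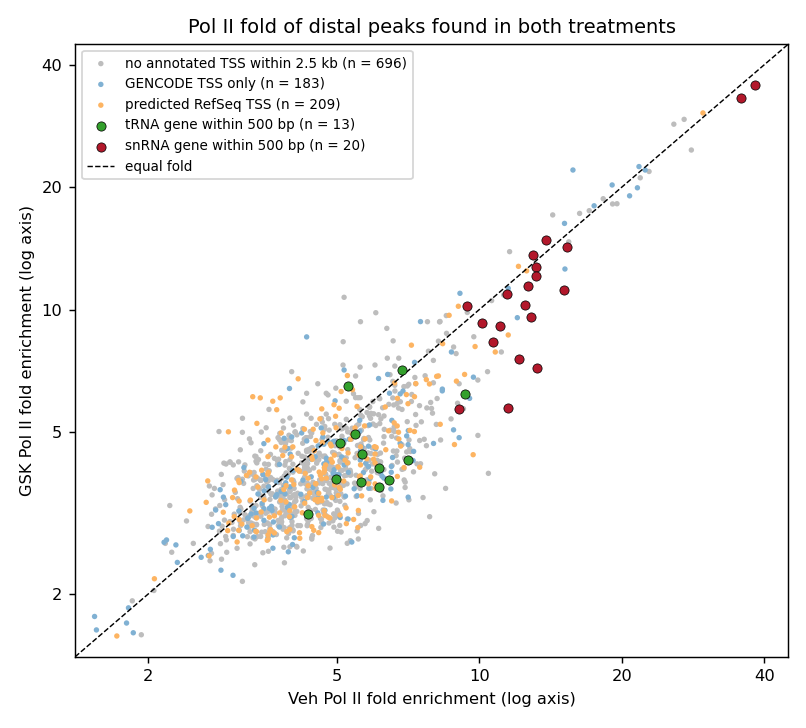
Each point is 1 of the 1121 distal Pol II peaks found in both treatments, with the fold enrichment in the Veh library on the x axis and in the GSK library on the y axis, both on log axes, coloured by the nearest kind of annotated start. The 20 members at snRNA genes had Veh folds from 9.08 to 38.2, while most other members lay below 10 and somewhat below the dashed line of equal fold.

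Members at snRNA genes were few and had high Pol II. A member was assigned to an snRNA or tRNA gene if its summit was within 500 bp of the gene. There were 20 at snRNA genes, which is 1.78% of the members (Wilson 95% interval 1.16 to 2.74), against 6 of the 7262 distal peaks in Veh alone (0.0826%, 0.0379 to 0.180). Put the other way, 20 of the 26 distal Veh peaks at snRNA genes had a GSK peak (76.9%, 57.9 to 89.0). All 20 lay at genes of the Pol II-transcribed kind. There were 8 at U2 genes (32 annotated), 6 at U1 genes (119 annotated), 5 at U5 genes (10 annotated) and 1 at a U4 gene (12 annotated). Most annotated U1 and U2 genes thus had no member, but the distance rule kept out peaks at genes with a curated TSS close by. How many of the annotated genes it left out was not counted. There were 0 members at the 712 annotated U6 genes, which are Pol III genes. The number to be expected there was not worked out. These counts therefore do not show where Pol II was absent. The 20 members had a median fold of 12.8 in Veh and 10.6 in GSK. Of the 20, 18 had a Veh fold of at least 10, and the GSK fold was higher in 3.

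The 2 members with the highest fold of all lay within 500 bp of U1 genes on chromosome 12, close to Eapp and Snx6. The member assigned to Gm22634 (chr12:54710509-54710934) lay wholly past the end of that gene, with a fold of 38.2 in Veh and 35.7 in GSK. At LOC115488077 (chr12:54734482-54734885) it was 35.7 in Veh and 33.1 in GSK. On the log2 scale, GSK differed from Veh by −0.10 at the first and −0.11 at the second. Another U1 gene of the cluster, LOC115488065, had 13.0 in Veh and 13.6 in GSK. The window of each of these 3 members matched 2 places on the chromosomes, its own included, at an identity of at least 95%, so reads of near-identical copies may have been discarded there. Of the 20 snRNA members, the U2 gene Gm26316 had the widest gap between treatments on the log2 scale, with a fold of 11.5 in Veh and 5.73 in GSK. At the U2 gene Gm23472 the fold was 13.3 in Veh and 7.19 in GSK. The U5 gene Gm23143, one of 3 U5 genes in a row between Kif2c and Armh1 on chromosome 4, had 13.8 in Veh and 14.8 in GSK, and its neighbour Gm23287 had 12.9 and 9.58. U5 RNA helps to align exons during splicing, U1 recognises the 5′ splice site and U2 the branch point.

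Relative to the snRNA genes, every summit lay downstream of the annotated start. The summits were 25 to 517 bp into or beyond the gene, with a median of 202 bp. Of the 20, 8 summits were within the gene, among them those of the 3 printed windows, and 12 were past its end. At the U1 genes Gm22634, Gm25890 and Gm22614 the whole peak lay past the gene end. These peaks also had an uneven set of other lists. H3K4me3 in either treatment was found over 10 of the 20 and H3K27ac over 5 of those 10. LSD1 alone was found over 4, H3K4me1 or H3K4me2 without H3K4me3 over 3, and 3 had none of the other 10 lists. The 3 with none were those assigned to the U2 gene Gm23971 (fold 9.43 in Veh and 10.2 in GSK), the U1 gene Gm25890 (12.5 and 10.3) and the U5 gene Gm23287 (12.9 and 9.58). By the −log10 p of the Pol II peak averaged over treatments, they were the 3 highest of all 96 members without another list, which does not hold by fold.

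Members at tRNA genes differed from those at snRNA genes. There were 13 such members, beside 403 annotated tRNA genes, to which the distance rule applied in the same way. They made up 1.16% of the members (0.679 to 1.97), against 9 distal peaks in Veh alone (0.124%, 0.0652 to 0.235). Their Veh folds ran from 4.34 to 9.35 with a median of 5.66, and the GSK median was 4.28. All 13 had H3K4me3 in both treatments, 12 had Veh H3K27ac and 11 had Veh LSD1. The highest was at the tRNA-Val gene n-TVcac9 near Btn1a1, with 9.35 in Veh and 6.21 in GSK. At n-TRccg1, a tRNA-Arg gene near Kpna2, the fold was 6.86 in Veh and 7.12 in GSK. The summit lay upstream of the tRNA start at 10 of the 13 genes, at −303 to −61 bp, as in the printed n-TIaat17 window where it was at −64 bp.

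Other annotated starts that are not curated accounted for more of the members. A predicted RefSeq TSS lay within 2.5 kb of 209 further members (18.6%) and a GENCODE TSS alone within 2.5 kb of 183 (16.3%), against 4.72% and 8.59% of the distal peaks in Veh alone. The remaining 696 members (62.1%, 59.2 to 64.9) had no annotated TSS of any of these kinds within 2.5 kb, against 86.5% (85.7 to 87.2) of the distal peaks in Veh alone. Among distal Veh peaks, the share with a GSK peak was 37.9% at predicted RefSeq TSSs (33.9 to 42.0), 22.7% at GENCODE TSSs (19.9 to 25.7) and 9.98% with no annotated TSS (9.30 to 10.7).

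**Figure D2:**
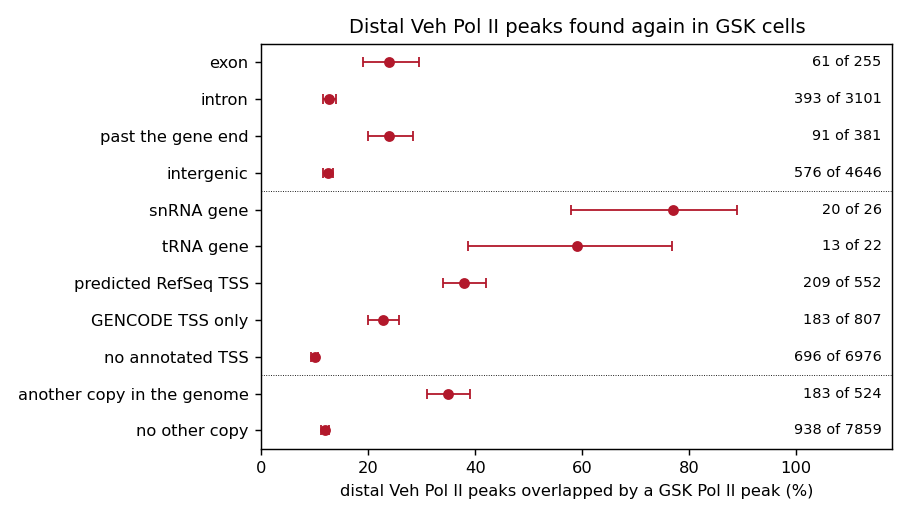
The x axis gives the percent of distal Veh Pol II peaks that overlapped a GSK Pol II peak, with Wilson 95% intervals as bars, for each place in genes (top), each kind of nearby start (middle) and for windows with or without another copy in the genome (bottom), with the counts at the right. The share was highest at snRNA genes, with 20 of 26, and lowest with no annotated TSS, with 696 of 6976.

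Over genes, most members were intergenic or intronic. By the summit, 61 members were in an exon (5.44%, 4.26 to 6.93), 393 in an intron (35.1%, 32.3 to 37.9), 91 within 5 kb past a gene end (8.12%, 6.66 to 9.86) and 576 were intergenic (51.4%, 48.5 to 54.3). Compared with the distal peaks in Veh alone, exons held 2.77 percentage points more of the members (1.52 to 4.30) and the stretch past gene ends 4.12 points more (2.59 to 5.92). For intergenic places the difference was −4.66 points (−7.80 to −1.53), and for introns it was −2.23 points with an interval that spanned 0 (−5.19 to 0.815). Of the 61 exonic members, 34 were in a last exon. Of the 393 intronic members, 153 were in the first intron of a transcript. The 91 past gene ends lay at a median of 2183 bp beyond the end, and 23 of them within 1 kb. Of the 576 intergenic members, 449 had a curated gene within 50 kb.

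Single members in these places had high folds in both libraries, and those with the highest −log10 p averaged over treatments are given. The first exonic member was in Lars2, the mitochondrial leucyl-tRNA synthetase, with a fold of 29.7 in Veh and 30.4 in GSK. The next 2 exonic members were in a (nonagouti, a pigmentation gene), with 7.75 and 5.73, and in Pomc, the precursor of pituitary peptide hormones, with 9.26 and 5.70. Among introns the leaders were Mdga2 (21.9 and 21.1), Gphn, which encodes the synaptic scaffold gephyrin (25.8 and 28.6), and Cldn34d (22.8 and 21.9). Of the 10 other lists, the Lars2 member carried 10, Pomc 9, Mdga2 8, Gphn 7, a 5 and Cldn34d 4. The inputs were not analysed, so whether these high folds are particular to Pol II was not tested. The 3 that led past gene ends by −log10 p were snRNA members, next to Slfn14 (15.1 and 11.2), Gm51630 (13.2 and 12.7) and Armh1 (12.9 and 9.58). By fold, a member past the end of Mir101c stood above them in Veh, with 15.2 in Veh and 12.6 in GSK, and its −log10 p was lower.

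The histone lists covered the members much more often than they covered the other distal peaks. In Veh cells, H3K27ac overlapped 70.1% of the members (67.4 to 72.7), H3K4me3 66.0% (63.2 to 68.7), H3K4me2 32.6% (30.0 to 35.4) and H3K4me1 24.8% (22.4 to 27.4). Over all Veh Pol II peaks these shares were 33.6%, 51.6%, 21.6% and 8.88%. For distal peaks in Veh alone they were 7.49% for H3K27ac, 7.49% for H3K4me3, 5.62% for H3K4me2 and 7.77% for H3K4me1. In GSK cells, H3K4me3 overlapped 68.0% of the members, H3K27ac 33.3%, H3K4me1 24.1% and H3K4me2 16.7%, against 52.5%, 14.1%, 9.65% and 11.9% of all Veh Pol II peaks. In Veh, the members exceeded the distal peaks of Veh alone by 62.6 points for H3K27ac (59.8 to 65.3), 58.5 points for H3K4me3 (55.6 to 61.3), 27 points for H3K4me2 (24.3 to 29.9) and 17.0 points for H3K4me1 (14.5 to 19.7). Peaks in Veh alone were also weaker, with a median fold of 3.45. Among peaks with a −log10 p of at least 5 in Veh, 980 members and 1556 others, the excess was 47.4 points for H3K27ac, 44.7 points for H3K4me3 and 16.2 points for H3K4me2 (12.7 to 19.8), and for H3K4me1 it was 2.98 points with an interval that spanned 0 (−0.349 to 6.37). Among peaks with a Veh fold from 3 to 6, 808 members and 6197 others, the H3K4me1 excess was 16.8 points (13.9 to 20.0). With this setting the excess was 59.8 points for H3K27ac, 55.7 points for H3K4me3 and 26.8 points for H3K4me2. The H3K4me1 excess thus depended on the range of peak strength used. Both settings limit strength to a range and do not match it. Over all peaks, the quartiles of Veh fold were 3.79 and 5.81 for members and 3.18 and 3.81 for distal peaks in Veh alone. Members may thus still be the stronger peaks within a range, and the part of strength in these differences was not tested.

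Set beside Pol II peaks near TSSs in both treatments, the members had less H3K4me3 and more H3K4me1. In Veh, H3K4me3 was found over 97.2% of the peaks near TSSs, and the members differed from them by −31.1 points (−34.0 to −28.4). H3K4me1 was found over 6.17% of them and was more frequent over the members by 18.6 points (16.1 to 21.3). H3K4me2 differed by −2.48 points, with an interval that spanned 0 (−5.48 to 0.612). H3K27ac was more frequent over the members by 6.85 points (3.80 to 9.78).

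**Figure D3:**
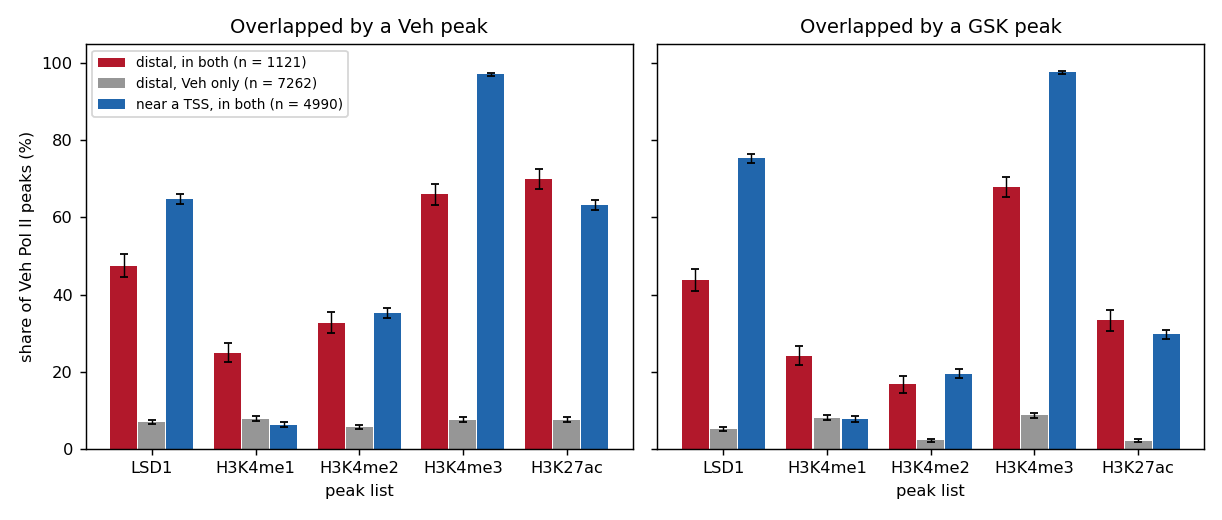
Bars give the percent of Veh Pol II peaks overlapped by a peak of each antibody in the Veh lists (left) and the GSK lists (right), for distal peaks in both treatments, distal peaks in Veh alone and peaks near a TSS in both, with Wilson 95% intervals. The distal peaks in both stood far above those in Veh alone, and they lay below the peaks near TSSs for H3K4me3 (66.0% against 97.2% in Veh) and for LSD1 (43.7% against 75.3% in GSK).

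Taking both treatments, 806 members (71.9%, 69.2 to 74.5) had H3K4me3, and 633 of these also had H3K27ac. The share with H3K4me3 was 9.01% for distal peaks in Veh alone and 98.0% near TSSs in both. A further 101 members (9.01%, 7.47 to 10.8) had H3K4me1 or H3K4me2 without H3K4me3, the combination usual for enhancers. It was found over 5.27% of distal peaks in Veh alone (4.78 to 5.81) and 0.762% of the peaks near TSSs in both. H3K27ac without a methyl mark was found over 92 (8.21%), LSD1 alone over 26 (2.32%) and no other list over 96 (8.56%, 7.06 to 10.3), against 41.3% of all Veh Pol II peaks with no other list. Of distal peaks in Veh alone, 1.02% had H3K27ac without a methyl mark and 0.454% had LSD1 alone. Near TSSs in both, these shares were 0.481% and 0.240%. The share with H3K4me3 was much the same in each place in genes. It covered 44 of 61 exonic members (72.1%), 271 of 393 intronic (69.0%), 66 of 91 past gene ends (72.5%) and 425 of 576 intergenic members (73.8%), with intervals that overlapped. Even with no annotated TSS within 2.5 kb, H3K4me3 covered 467 of 696 members (67.1%, 63.5 to 70.5), whereas at predicted RefSeq TSSs it covered 177 of 209 (84.7%, 79.2 to 88.9).

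The H3K4me3 peaks over members were narrower and lower than those at curated TSSs. Of the 740 members with a Veh H3K4me3 peak, 5 had one that reached to within 1 kb of a curated TSS, which the distance rule largely sets. The peaks had a median width of 957 bp and a median fold of 5.04, against 1451 bp and 5.90 over Pol II peaks near TSSs. The H3K27ac peaks over members were wider, with 817 bp against 611 bp, and had a median fold of 3.93 against 4.17. For LSD1 the median fold was 4.43 over the members and 4.47 near TSSs.

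LSD1, the target of GSK2879552, was itself found over many members. In Veh cells 47.5% had an LSD1 peak (44.5 to 50.4) and in GSK cells 43.7% (40.8 to 46.6), against 34.4% and 37.9% of all Veh Pol II peaks. The shares near TSSs were 64.9% in Veh and 75.3% in GSK. Of the 532 members with Veh LSD1, 361 (67.9%, 63.8 to 71.7) also had GSK LSD1, and near TSSs 88.1% (86.9 to 89.2) did. LSD1 was thus found in Veh alone over 171 members and in GSK alone over 129, a net change of −3.75 points (−6.68 to −0.719), and near TSSs the net change was 10.4 points (9.10 to 11.7). The sign stayed opposite when both LSD1 lists were cut to equal length, with −3.39 points over the members and 11.3 points near TSSs. These 2 sets were compared by intervals that cover counting error only.

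The net changes of the histone marks over members moved with the length of the lists. H3K27ac covered 70.1% of the members in Veh and 33.3% in GSK, and the GSK H3K27ac list held 2751 peaks and the Veh list 7410. With lists of equal length the net change was −6.07 points (−8.47 to −3.46) in place of −36.8 points. For H3K4me2, whose lists held 15219 peaks in Veh and 9437 in GSK, it was −4.10 points in place of −16.0 points. For H3K4me3 it was 1.96 points as deposited (0.129 to 3.66) and −2.77 points with equal lists (−4.41 to −0.931), so the direction depended on the list length. H3K4me1 changed by −0.714 points, with an interval that spanned 0 (−2.43 to 1.06). The study lists more read pairs for the Veh than for the GSK library of H3K27ac and of H3K4me2, the same direction as the list lengths. For Pol II it lists more read pairs for GSK, whose list was the shorter, with 15401 peaks against 15638 in Veh. The study also states that libraries were brought to equal read numbers by random picking to compare signals. How far library depth sets these lengths was not tested.

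**Figure D4:**
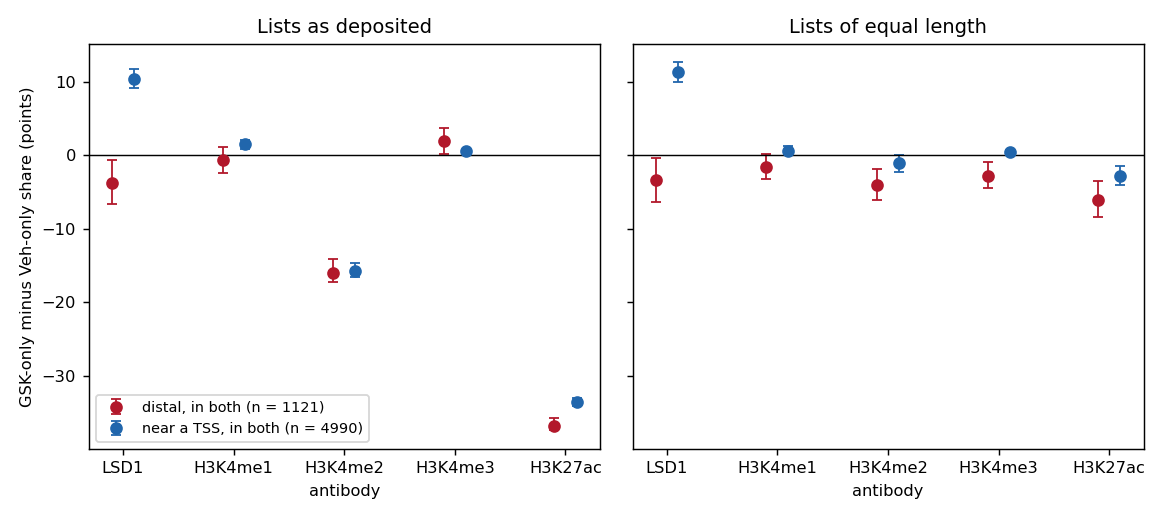
The y axis gives the share of Pol II peaks with a peak of the antibody in GSK alone minus the share with one in Veh alone, in percentage points with 95% intervals, for lists as deposited (left) and cut to equal length (right). LSD1 lay below 0 over the distal peaks and above 0 near TSSs in both panels, while the large values of H3K4me2 and H3K27ac shrank with equal lists.

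Members also differed in how many of the 10 other lists covered them. The median was 4 lists, against 5 near TSSs and 0 for distal peaks in Veh alone. All 10 lists covered 16 members (1.43%, 0.880 to 2.31), against 0.217% of all Veh Pol II peaks and 13 of the 4990 near TSSs (0.261%). These 16 had a median fold of 15.3 in Veh and 15.9 in GSK, 11 of them reached 10 in Veh, and 7 had another copy of their sequence in the genome. Together with the snRNA members they made up 29 of the 52 members with a Veh fold of at least 10.

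Of the 16, 4 were on chromosome 9 and 3 on chromosome 3. In the repeats near Mir101c there were 3, with folds of 15.8, 22.4 and 15.2 in Veh and of 22.0, 22.0 and 12.6 in GSK. The first 2 overlapped the same GSK peak, so their GSK fold of 22.0 is 1 value. Among windows with a single match, the highest was the Lars2 exon (29.7 in Veh and 30.4 in GSK), followed by an intron of Apool, a mitochondrial membrane protein gene (19.5 and 18.2), and an intergenic peak at chr12:74803903-74804505 (15.5 and 14.7). An intron of Zc3h7a had 19.1 and 20.3, an intergenic peak at chr17:39846692-39847003 had 21.7 and 22.5, and one at chr3:5860339-5860606 had 27.1 and 29.4, each with at least 1 further copy. Those in Lef1 (5.25 and 3.73), past Ceacam19 (6.02 and 4.20) and near Enpp3 (6.67 and 4.37) had lower folds, against a median of 4.63 in Veh and 3.97 in GSK over all members.

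**Figure D5:**
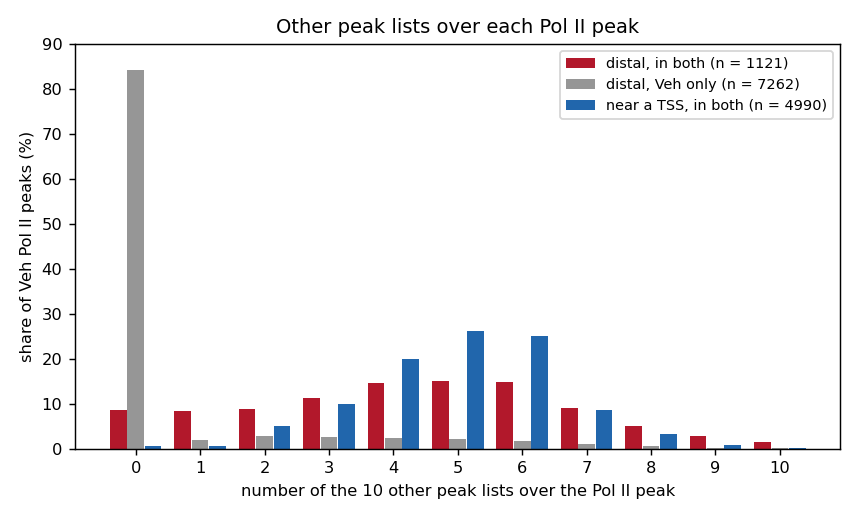
Bars give the percent of Veh Pol II peaks covered by 0 to 10 of the other peak lists, for distal peaks in both treatments, distal peaks in Veh alone and peaks near a TSS in both. Distal peaks in Veh alone piled up at 0 lists (6118 of 7262), while distal peaks in both spread over the whole range, with 96 at 0 and 16 at 10.

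Windows with a further copy in the genome were more common among the members than among other Pol II peaks. The 300 bp around the summit had at least 1 further match on the chromosomes (95% identity over 90% of the window) for 183 members (16.3%, 14.3 to 18.6), against 4.70% of the distal peaks in Veh alone and 1.52% of the peaks near TSSs in both. Soft-masked repeats went the other way against the distal peaks in Veh alone, with a median of 7.33% of the window in members and 14.3% in those peaks. Reads were kept only where they mapped to a single place, so the values of these members are uncertain. Of the 183, 40 were on chromosome 1 and 40 on chromosome 8. They had H3K4me3 less often, in Veh 35.0% (28.4 to 42.1) against 72.1% (69.1 to 74.8) of the other 938 members, and 24.0% of them had no other list, against 5.54%. Their median fold was 4.64 in Veh and 4.60 in GSK, and that of the other members was 4.63 and 3.90. The part of the copies in these differences was not tested.

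Except for Sfi1, the genes with the most members lay in such regions. Gm38510 on chromosome 1 had 12, with Veh folds from 2.73 to 6.63, and 9 of them had another copy. Gm7592 on the same chromosome had 7, all with another copy. Zfp978 on chromosome 4 had 9, of which 8 had another copy, and Veh folds ran from 2.93 to 6.04. Mir101c, a microRNA gene near the start of the chromosome 9 assembly, was the nearest gene of 7 members between 3002026 and 3035287, all with another copy, with Veh folds from 4.63 to 22.4 and a median of 97.3% of bases soft-masked as repeats. Sfi1, which encodes a centrosome protein, had 11 on chromosome 11 with 0 further copies at the level used here, and its Veh folds were low, from 1.54 to 3.25.

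Near listed T cell genes, members had modest folds, and the share of genes with a member differed between the lists. A gene was counted if a member was inside it, within 5 kb past its end, or intergenic with that gene nearest within 50 kb, which holds for 2.99% of the 26180 curated genes. T cell receptor and signalling genes had a member at 5 of 17 (29.4%, among them Cd3d, Cd8a, Cd8b1 and Ptprc), cytokine receptor and SOCS genes at 3 of 10 (30.0%, Ifngr1, Il21r and Socs1), and memory and progenitor genes at 2 of 15 (13.3%, Lef1 and Bcl2). Transcription factor genes had a member at 2 of 25 (8%, Ikzf1 and Id2), effector and cytokine genes at 1 of 14 (7.14%, Gzmb), microRNA and noncoding host genes at 1 of 5 (20.0%, Mir155hg), and inhibitory receptor genes at 0 of 10. The B cell, myeloid and CD4+ T cell markers had 0 members. Not all of these genes had a member inside them or within 5 kb past their end. That held for 2 T cell receptor and signalling genes, 2 memory and progenitor genes and 2 transcription factor genes. It held for 0 genes of the other lists, whose members were intergenic.

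The members in or near T cell receptor and signalling genes had Veh folds from 3.14 to 5.44. In Ptprc, which encodes the phosphatase CD45, the intronic member had a fold of 3.60 in Veh and 5.68 in GSK, and carried H3K4me3 in both treatments. A second member 16894 bp from Ptprc had 5.44 in Veh and 3.62 in GSK. The direction thus differed between the 2 members of this gene. Between the co-receptor genes Cd8a and Cd8b1 lay 3 members, at chr6:71342423-71342846 (3.96 in Veh and 2.82 in GSK), chr6:71353771-71354124 (3.14 and 3.78) and chr6:71357507-71357792 (3.36 and 2.73). In Cd3d, a subunit of the receptor complex, the exonic member had 3.35 and 2.87, and lay 3898 bp from a curated TSS.

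Among cytokine receptor genes, Il21r (the receptor for IL-21) had a member 9432 bp away with a fold of 4.24 in Veh and 5.93 in GSK. It carried LSD1 in GSK alone, H3K4me3 and H3K27ac in both. Ifngr1, a subunit of the interferon gamma receptor, was the nearest gene of 2 intergenic members. The member 9134 bp away had 3.39 in Veh and 3.12 in GSK, and that 14501 bp away had 3.04 and 3.14. Socs1, a feedback inhibitor of cytokine signalling, had 1 intergenic member 13794 bp away with 3.40 and 3.12.

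Memory and progenitor genes had 3 members, effector genes 2, transcription factor genes 2, and Mir155hg, the host of miR-155, 1. The Mir155hg member was 9726 bp from the gene, with a fold of 6.40 in Veh and 6.93 in GSK, and carried LSD1 and H3K4me3 in both treatments. Gzmb, the cytotoxic protease granzyme B, had 1 member 34431 bp away with 3.79 in Veh and 4.96 in GSK, with 6 other lists, and 1 at 22651 bp with 4.81 and 2.99, with Veh H3K27ac alone. Bcl2, a survival gene, had 2 in an intron, with 5.34 in Veh and 4.02 in GSK and with 3.92 and 2.84. The Lef1 intron member, printed above, lay 52313 bp from the TSS, had 5.25 in Veh and 3.73 in GSK and carried all 10 other lists. In Ikzf1, the gene of the factor Ikaros, the intronic member had 5.26 and 3.05 and carried Veh H3K27ac alone. Id2, an inhibitor of E proteins, had 1 member 772 bp past its end with 3.92 and 2.74. The single pair of libraries gives no error for any of these differences.

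In base composition the members lay between both kinds of peak they were compared with. The median GC content of the 300 bp windows was 52.3%, against 43.0% for distal peaks in Veh alone and 64.3% near TSSs in both. The AP-1 letters were found in 10.4% of member windows (8.78 to 12.4), 10.7% of distal windows in Veh alone, 3.57% of those near TSSs and 7.62% of all Veh Pol II windows. For RUNX the shares were 9.19%, 7.68%, 3.33% and 5.87%. ETS letters were found in 7.94% of member windows (6.50 to 9.67), against 1.83% in Veh alone, 23.6% near TSSs and 11.4% of all. TATAAA was found in 9.99% of member windows, against 23.0% in Veh alone and 5.49% near TSSs. The AP-1 and RUNX shares of the members were close to those of other distal peaks, with differences of −0.235 points (−2.05 to 1.81) and 1.5 points (−0.175 to 3.43), while the ETS share was 6.11 points higher (4.63 to 7.86). Motif shares move with GC content, and its part was not tested.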

How the data were processed

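Reads of each ChIP library had been mapped uniquely to mm10 with Bowtie2, cleared of duplicates with Samtools and passed to MACS2, which the authors ran with input as the control. Narrow peaks with a summit were called for Pol II and LSD1, and broad regions for the histone marks (8 lists). The authors deposited a fold enrichment per peak, the ratio of pileup in the ChIP library to the background that MACS2 takes from the input. Which of the 4 inputs went with which list is not given in the sources used here. The −log10 p and −log10 q in the deposited lists come from MACS2, as does the score, which was not used. The lowest −log10 p in the Pol II lists was 3.00. The input samples have no peak list and were not analysed here.

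Distances and places came from the RefSeq annotation of GRCm38.p6, with 31601 curated TSSs of 26180 genes. GENCODE M21 served as a second annotation. An exon took precedence over an intron, and an intron over the stretch past a gene end. Where several GSK Pol II peaks overlapped a member, that with the longest overlap gave the GSK fold. Some members shared a GSK peak, and the 1121 members drew on 1100 distinct ones. Windows of 300 bp were matched to the chromosomes with minimap2 2.31 to count copies. Coordinates are 1-based. Scripts in Python 3.11.15 were tested on simulated peaks.

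Shares have Wilson 95% intervals and differences of shares Newcombe 95% intervals. These cover counting error only, and peaks are not independent of each other. The lists hold no read numbers. The study's reporting summary gives read pairs for each library, which differ between treatments (GSK deeper for Pol II, Veh deeper for H3K27ac), and they were not used. In each treatment, 1 list per antibody was at hand, so no p-value is given. Lists of equal length keep the peaks with the highest −log10 p of the longer list.

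Named members were, by −log10 p averaged over treatments, the 12 highest, the 3 highest in each place, the 3 highest without another list and up to 12 of listed genes, plus the genes with the most members. The snRNA and tRNA members, the remaining members of listed genes and those under all 10 other lists were added after their values were seen. The members and gene lists were chosen with earlier results of these data known. Some sequences and 1 gene are not reported here.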

Additional observations from a re-analysis of the deposited data

How the results depend on the processing

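Of 144 alternatives for 33 results, 97 moved the value by less than its interval, 46 by more, and 1 turned its sign. The cause was not tested unless it follows from the setting itself. The number of members stayed between 814 and 1285 (1121 as reported). The share of distal Veh peaks with a GSK peak was 14.6% with a TSS distance of 1 kb, 11.3% with predicted RefSeq transcripts, 11.2% with GENCODE TSSs, 11% with summits within 200 bp, 12.4% when the overlap covered 0.5 of the shorter peak, and 11.9% without windows that have another copy (added once the data had been seen). It was 33.8% with a −log10 p of at least 5 in both lists and 33.5% with a −log10 q of at least 2, since these settings remove most distal peaks of Veh alone. With predicted models, 15.4% of the members were exonic, 41.5% intronic and 33.5% intergenic. With a gene end window of 2 kb, 4.01% were past gene ends and 55.5% intergenic, and with 10 kb 13.9% and 45.6%. A predicted TSS lay within 1 kb of 15% of the members.

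Within 500 bp of the summit, the shares were 52.1% for Veh and 47.4% for GSK LSD1, 36.7% and 35.1% for H3K4me1, 40.6% and 21.6% for H3K4me2, and 73.9% and 37.1% for H3K27ac, and the net change of H3K4me2 was −19.0 points. With a −log10 q of at least 2 in both Pol II lists, they were 48.8% for GSK LSD1, 71.5% for Veh and 72.6% for GSK H3K4me3, and 76.0% and 38.3% for H3K27ac. Without windows that have another copy, they were 51.0% for Veh LSD1, 27.9% and 27% for H3K4me1, 36.9% for Veh H3K4me2, 72.1% and 75.4% for H3K4me3, and 37.5% for GSK H3K27ac. With lists of equal length, the net change was −4.10 points for H3K4me2 and −6.07 points for H3K27ac, and that of H3K4me3 turned to −2.77 points. Without the members under all 10 other lists, also chosen after seeing the data, that of H3K27ac was −37.4 points. Among Veh peaks with a −log10 p of at least 5, the members exceeded distal peaks of Veh alone by 26.8 points for LSD1, 2.98 for H3K4me1, 16.2 for H3K4me2, 44.7 for H3K4me3 and 47.4 for H3K27ac, and differed from peaks near TSSs by −27.6 points for H3K4me3. No paired analysis was possible because each antibody and treatment has 1 library and the inputs, which carry the numbers, have no peak list.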
